A study of Mus musculus with 6 samples.

Results

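The pyruvate dehydrogenase genes examined here were the 10 symbols Pdha1, Pdhb, Dlat, Pdhx, Pdk1, Pdk2, Pdk3, Pdk4, Pdp1 and Pdp2, taken by name from a table of read counts for 35178 gene symbols. All 10 were in the table, and all 10 passed the filter on low counts. RNA had been sequenced from Ter119+ spleen cells of sickle cell disease mice, in 3 libraries with intact Nrf2 (wild type, WT) and 3 from Nrf2 knockout (KO) animals, to compare the transcriptomes of erythroid cells with and without Nrf2. Ter119 marks the surface of erythroid cells, and Nrf2, encoded by Nfe2l2, is a transcription factor that drives antioxidant genes. Both groups share the sickle cell disease genotype, the mixed B6;129P2 background and an age of 2 to 3 months. The sources used here give neither the sickle alleles nor the deleted part of Nfe2l2, and do not say whether each library is a separate animal. P-values therefore reflect the variation among these libraries, some of which may be technical.

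The pyruvate dehydrogenase complex sits in the mitochondrial matrix and turns pyruvate, the end product of glycolysis, into acetyl-CoA for the citric acid cycle. Its E1 component (Pdha1 and Pdhb) decarboxylates pyruvate, its E2 component (Dlat) passes the acetyl group to coenzyme A, and the binding protein Pdhx anchors the E3 component Dld, which regenerates the lipoyl arm. The kinases Pdk1 to Pdk4 phosphorylate serines of the E1 alpha subunit and switch the complex off, and the phosphatases Pdp1 and Pdp2 switch it on again. Mature red cells normally have no mitochondria, so the complex works in the precursors that still hold them.

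Library totals ran from 16420054 to 21790983 reads. Nfe2l2 itself stood at 81.6 ± 14.9 CPM (read counts scaled to the size of each library) in WT and 69.6 ± 6.75 in KO (mean ± SD, n = 3 each), and reads outside the deleted part check nothing about the genotype. The 10 erythroid marker genes were all detected and summed to 34956 to 36459 CPM in WT and 24049 to 26144 in KO, without overlap. Macrophage markers (9 of the 10 listed symbols were in the table, all with reads) summed to 1230 to 1365 CPM in WT and 1359 to 1683 in KO. These sums overlapped narrowly, and those of B cells, T and NK cells, neutrophils and platelets overlapped between the groups as well. The part of these differences in the results below was not tested. Xist, transcribed from the inactive X of females, had 784 to 1169 CPM of the library total in WT. Its level was 917 CPM in KO replicate 3 but only 15.8 and 0.702 in the other KO libraries, which held 212 and 271 CPM from chromosome Y. KO replicate 3 held 4.64 CPM from chromosome Y, against 0 to 0.289 in WT. By these transcripts KO replicates 1 and 2 differed in sex from the WT libraries, and the labels do not give sex. Sex and genotype cannot be fully told apart in the tests of KO against WT, which had no covariate. The value for KO replicate 3 alone, against all WT libraries, is therefore given for each member. In bulk RNA, fewer cells of a type and less RNA per cell cannot be told apart.

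RefSeq start-site windows (250 bases before to 50 after the start, build GRCm38.p6) were found for 9 of the 10 members, in 11 windows. A window is shown for each of 4 members. Pdk1 had the smallest p of the 10 and Pdp2 the largest log2 change upward. Pdk2 carries the same short palindrome as Pdp2 and had a log2 change of -0.07, and Pdhb holds the only antioxidant response element core. Both strands were searched for the core of the antioxidant response element, which Nrf2 binds with small Maf proteins, spelled TGACNNNGC. The hypoxia response element core was spelled ACGTG here. The GATA motif of erythroid promoters was spelled AGATAA in this search. The half-site of estrogen-related receptors was spelled AAGGTCA for both strands. Capitals mark a match.
Pdk1, chr2:71872974-71873273, plus strand: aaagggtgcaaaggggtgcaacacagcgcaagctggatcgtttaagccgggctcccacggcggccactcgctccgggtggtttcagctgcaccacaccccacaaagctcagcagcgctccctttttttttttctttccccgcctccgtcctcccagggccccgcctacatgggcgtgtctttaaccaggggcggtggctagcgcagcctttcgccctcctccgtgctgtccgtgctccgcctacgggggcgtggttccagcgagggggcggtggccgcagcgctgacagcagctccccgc
Pdp2, chr8:104591222-104591521, plus strand: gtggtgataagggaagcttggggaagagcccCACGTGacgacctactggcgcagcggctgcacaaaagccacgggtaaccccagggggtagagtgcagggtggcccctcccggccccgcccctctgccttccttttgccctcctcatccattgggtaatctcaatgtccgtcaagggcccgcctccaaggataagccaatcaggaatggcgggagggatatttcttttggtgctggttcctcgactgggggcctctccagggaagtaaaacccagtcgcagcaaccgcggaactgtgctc
Pdk2, chr11:95041322-95041621, minus strand: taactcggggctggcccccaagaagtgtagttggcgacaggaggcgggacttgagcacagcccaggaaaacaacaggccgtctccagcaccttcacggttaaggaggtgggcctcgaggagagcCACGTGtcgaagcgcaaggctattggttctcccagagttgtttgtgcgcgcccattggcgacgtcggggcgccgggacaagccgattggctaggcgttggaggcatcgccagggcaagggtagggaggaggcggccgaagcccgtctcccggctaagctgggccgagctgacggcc
Pdhb, chr14:8172943-8173242, minus strand: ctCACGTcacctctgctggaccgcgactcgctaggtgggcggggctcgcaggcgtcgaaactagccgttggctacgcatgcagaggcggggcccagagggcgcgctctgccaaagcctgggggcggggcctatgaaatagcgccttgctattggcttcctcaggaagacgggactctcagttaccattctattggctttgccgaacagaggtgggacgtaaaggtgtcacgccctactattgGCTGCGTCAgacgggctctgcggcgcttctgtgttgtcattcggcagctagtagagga

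Pdk1 and Pdk2 each have a further window that is not shown. Both Pdk1 windows, and the Pdk2 window not shown, held none of the 4 motifs as spelled here. Other spellings of the hypoxia response element core, such as GCGTG, were not searched, and the printed Pdk1 window holds those letters. The same limit applies to other spellings of the GATA motif, such as TGATAA, which the printed Pdp2 window holds. In Pdp2 and Pdk2 the match was the palindrome CACGTG, which reads ACGTG on both strands and is also the letters of an E-box, with its first base at position -219 in Pdp2 and -126 in Pdk2. The antioxidant response element core in Pdhb began at position -8 and read GCTGCGTCA on the printed strand. Of the 11 member windows, 4 held ACGTG, 1 the antioxidant response element core and 1 the GATA motif, where 19.6%, 12.4% and 11.2% of all 32851 windows did. The estrogen-related receptor half-site was in 0 of the 11, against 4.72% of all windows. A match describes letters in the window and does not show a bound site.

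Over all 13721 genes tested with edgeR's quasi-likelihood test, 3 passed an adjusted p (Benjamini-Hochberg) under 0.05, which is 0.0219%, and none of them was a member. At an unadjusted p under 0.05 stood 5 of the 10 members, against 12.2% of all genes; Pdha1, Dlat, Pdk1 and Pdp2 were higher in KO (the background in that direction was 6.25%) and Pdk4 was lower. DESeq2 called 1 member, Pdk1, against 2.89% of all genes, with no adjusted p for 4 members, and limma-voom called 0. In 5 members, the same 4 and Pdp1, every KO library lay above every WT library, where 10.3% of all genes did so. In 0 members did every KO library lie below every WT library, against 7.91% of all genes. The median log2 change of the 10 members was 0.25 and that of all genes 0.02. Scaling by library totals in place of TMM moved the median of all genes to 0.15 and that of the members to 0.38. That scaling called 0.241% of all genes and 1 member, Pdk1. Relative to the median of all genes, the log2 change of Pdk1 was 0.56.

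**Figure D1:**
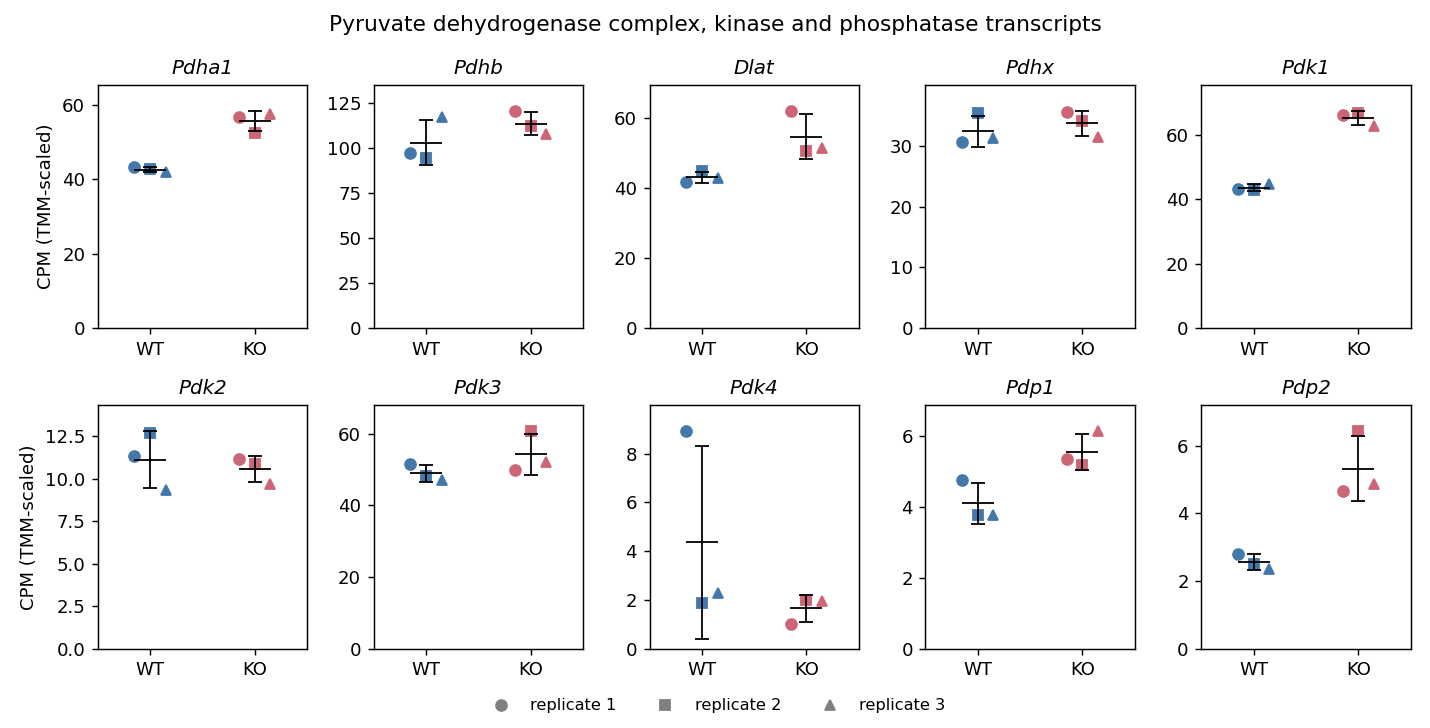
CPM (TMM-scaled, y axis from 0) of the 10 members in each WT and KO library, 1 panel per gene; symbols are replicates and bars the mean ± SD of 3 libraries. Pdk1 sat at 42.9 to 44.7 CPM in WT and 62.6 to 66.6 in KO, while Pdk4 was at 8.92 in WT replicate 1 and at 1.01 to 2.29 in the other libraries.

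None of the 4 catalytic and binding subunits passed the test. All KO libraries lay above all WT libraries for Pdha1 and Dlat, and the groups overlapped for Pdhb and Pdhx. Pdha1, the X-linked E1 alpha subunit that carries the regulatory phosphorylation sites, had 43.3, 42.8 and 41.9 CPM in WT replicates 1, 2 and 3 and 56.9, 52.6 and 57.6 in KO. The lowest KO library stood above the highest WT library, and KO replicate 3, the KO library with Xist, was the highest of all. The change was 0.38 on the log2 scale (SE 0.107, 95% interval 0.15 to 0.62; adjusted p = 0.197 by edgeR), and 0.43 in KO replicate 3 alone. Pdha1 lies on chromosome X from 160122209 to 160138413 (mm10), where an exon overlaps one of the opposite-strand gene Map3k15 by 425 bases. Map3k15 had 5 to 15 reads a library, against 678 to 1170 for Pdha1. The testis-specific copy Pdha2 had 0 reads in all 6 libraries.

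Dlat, the E2 acetyltransferase on chromosome 9 from 50634633 to 50659780, had 41.7, 44.8 and 43.0 CPM in WT and 62.0, 50.6 and 51.4 in KO. All KO libraries were higher, with KO replicate 1 well above the other two. The log2 change was 0.34 (SE 0.120, adjusted p = 0.295 by edgeR), or 0.22 without KO replicate 1, which moved it by over 1.5 times, and 0.25 in KO replicate 3 alone.

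Pdhb, the E1 beta subunit, on chromosome 14 from 8165996 to 8173025, had 97.2, 94.3 and 117 CPM in WT and 121, 112 and 108 in KO. WT replicate 3 lay within the KO range. Its log2 change was 0.14 (95% interval -0.11 to 0.39; adjusted p = 0.677 by edgeR), 0.25 without WT replicate 3 and 0.07 without KO replicate 1 and in KO replicate 3 alone. Pdhx, on chromosome 2 from 103021075 to 103073513, had 30.6, 35.3 and 31.3 CPM in WT and 35.5, 34.1 and 31.5 in KO. The groups covered nearly the same range, and the log2 change was 0.06 (95% interval -0.22 to 0.33; adjusted p = 0.900 by edgeR) and -0.04 in KO replicate 3 alone. Dld, the E3 dehydrogenase shared with the sister complexes, had 95.8 ± 4.64 CPM in WT and 106 ± 6.41 in KO (log2 0.14, SE 0.101, adjusted p = 0.625 by edgeR).

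**Figure D2:**
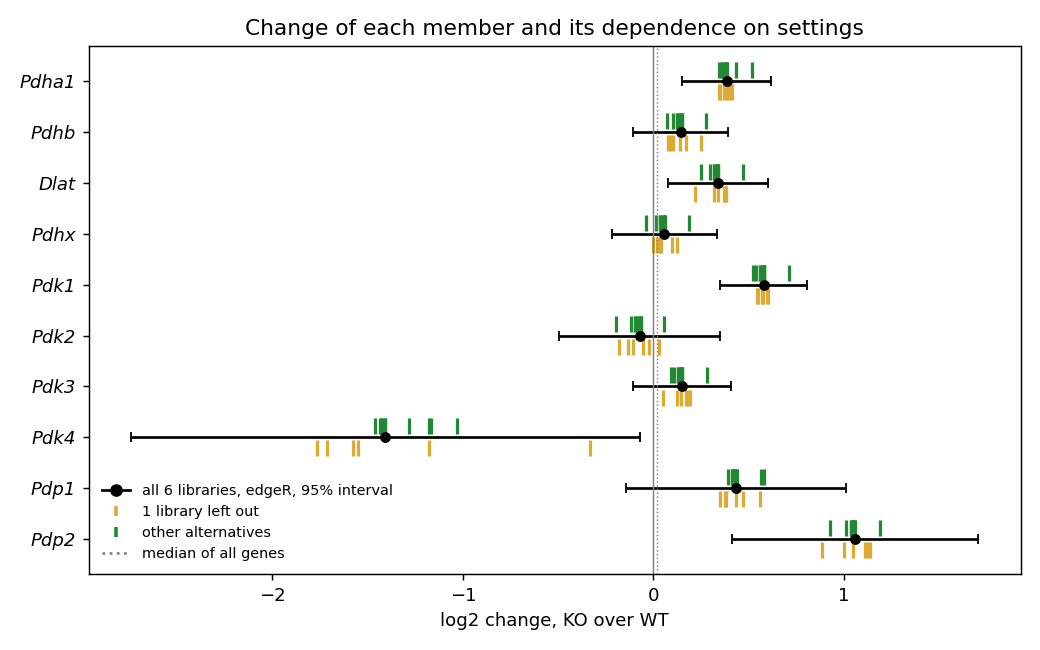
Log2 change of KO over WT for the 10 members (x axis), with black points and 95% intervals from edgeR on all 6 libraries, yellow ticks with 1 library left out and green ticks for the other alternatives. Pdk1 stayed between 0.52 and 0.71 under all 16 alternatives, and Pdk4 ran from -1.76 to -0.33.

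None of the 4 kinases passed with edgeR. All KO libraries lay above all WT libraries for Pdk1, the groups overlapped for Pdk2 and Pdk3, and the difference in Pdk4 rested on 1 library. Pdk1, a kinase known as a target of hypoxia-inducible factor 1, lies on chromosome 2 from 71873224 to 71903858. It had 43.2, 42.9 and 44.7 CPM in WT and 66.2, 66.6 and 62.6 in KO (911, 684 and 724 reads, and 1177, 1482 and 1093). The libraries of each group lay close together, and the groups were far apart. The log2 change was 0.58 (SE 0.103, 95% interval 0.35 to 0.81), or 1.49-fold, at an adjusted p of 0.0864 by edgeR. An exact permutation test, two-sided, gave 0.1, the smallest p that 3 libraries against 3 allow. DESeq2 passed it at an adjusted p of 0.000992. With edgeR it also passed by library totals (adjusted p = 0.0417) and without a filter on low counts (adjusted p = 0.00976). The other settings with at least 2 libraries a group gave adjusted p-values from 0.0802 to 0.315, the highest without WT replicate 2. In KO replicate 3 alone, a single library against 3, the log2 change was 0.52 (adjusted p = 0.576 by edgeR).

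Pdk3, the X-linked kinase on chromosome X from 93764607 to 93832201, had 51.4, 48.2 and 47.0 CPM in WT and 49.9, 60.7 and 52.1 in KO. KO replicate 2 was the highest library, and KO replicate 1 lay within the WT range. The log2 change was 0.15 (95% interval -0.11 to 0.41; adjusted p = 0.667 by edgeR), 0.05 without KO replicate 2 and 0.09 in KO replicate 3 alone.

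Pdk2, the widely expressed kinase on chromosome 11 from 95026258 to 95041354, had 11.3, 12.7 and 9.33 CPM in WT and 11.1, 10.9 and 9.68 in KO. All KO libraries lay within the WT range. The log2 change was -0.07 (95% interval -0.49 to 0.35; adjusted p = 0.918 by edgeR). It was 0.06 by library totals, 0.03 without WT replicate 2 and -0.20 in KO replicate 3 alone, so no direction is given.

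Pdk4, the kinase induced by fasting and fatty acids in muscle and liver, lies on chromosome 6 from 5483351 to 5496309. It had 188 reads in WT replicate 1 and 18 to 44 in each other library, which is 8.92, 1.88 and 2.29 CPM in WT and 1.01, 1.98 and 1.95 in KO. Apart from WT replicate 1 the groups overlapped. The log2 change was -1.41 (SE 0.598, adjusted p = 0.384 by edgeR), and -0.33 (adjusted p = 0.872 by edgeR) without WT replicate 1. In KO replicate 3 alone it was -1.17, with WT replicate 1 kept. WT replicate 1 also had the largest sum of the 7 B cell markers, 1179 CPM against 420 to 1003 in the other libraries, and the smallest sum of neutrophil markers, 311 CPM against 472 to 974. Their part in the Pdk4 value was not tested.

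All KO libraries lay above all WT libraries for both phosphatases, at low counts, and neither passed the test. Pdp2, on chromosome 8 from 104591451 to 104599026, had 59, 40 and 38 reads in WT and 83, 143 and 85 in KO, which is 2.80, 2.51 and 2.35 CPM and 4.67, 6.42 and 4.87 CPM. The lowest KO library was well above the highest WT library. This was a log2 change of 1.06 (SE 0.294, 95% interval 0.41 to 1.70; adjusted p = 0.197 by edgeR), or 2.08-fold, with 0.88 to 1.13 when single libraries were left out and 0.93 in KO replicate 3 alone. Pdp1, on chromosome 4 from 11958184 to 11966452, had 4.75, 3.76 and 3.77 CPM in WT and 5.34, 5.17 and 6.13 in KO. The groups did not overlap, but WT replicate 1 came close to the KO libraries, and the log2 change of 0.43 (95% interval -0.15 to 1.01) had an adjusted p of 0.551 by edgeR and was 0.58 in KO replicate 3 alone. Pdpr, a regulatory subunit of the phosphatase, had 11.6 ± 2.75 CPM in WT and 12.2 ± 3.27 in KO (log2 0.08, adjusted p = 0.929 by edgeR).

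Per kilobase of annotated exon, the level of Pdhb was the highest of the 10 in WT at 26.6 ± 3.24 CPM per kb, close to Dld at 26.0 ± 1.26. Pdk3 followed at 19.1 ± 0.884, then Pdha1 at 11.4 ± 0.190. Dlat (8.84 ± 0.322) and Pdhx (8.24 ± 0.650) did not differ beyond their spread. Pdk1 stood at 5.61 ± 0.124 CPM per kb, Pdk2 at 3.51 ± 0.532, Pdk4 at 1.24 ± 1.13, Pdp1 at 0.908 ± 0.126 and Pdp2 at 0.448 ± 0.0403. The Pdk4 and Pdp1 ranges overlapped. In KO, Pdk1 stood at 8.37 ± 0.281, within the spread of Pdhx at 8.57 ± 0.513, and the order of the 10 was the same except at the low end, where Pdp1 (1.23 ± 0.114) and Pdp2 (0.935 ± 0.169) stood above Pdk4 (0.469 ± 0.156). With the longest transcript as length, Pdhx and Dlat changed places in WT (12.9 and 10.7 CPM per kb).

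Pdk3 supplied most of the kinase reads per kb, at 64.9% ± 1.55 in WT and 63.4% ± 2.05 in KO (SD, n = 3 each), a difference within the spread. The share of Pdk1 was 17.5%, 19.1% and 20.8% in WT replicates 1, 2 and 3 and 26.8%, 23.6% and 25.1% in KO, so that all KO libraries lay above all WT libraries and the means differed by 6.06 percentage points. Pdk2 took 10.6% to 13.9% in WT and 9.48% to 11.1% in KO. Pdk4 took 8.003% in WT replicate 1 and 0.907% to 2.35% in the other libraries. With the longest transcript as length, the Pdk1 share was 22.4% ± 1.74 in WT and 29.0% ± 1.66 in KO.

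**Figure D3:**
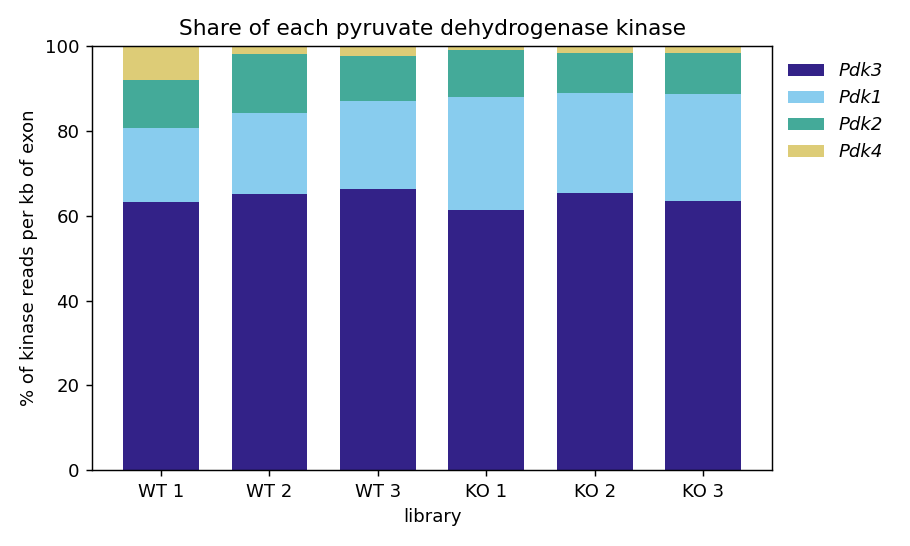
Share of the reads per kb of exon of Pdk1, Pdk2, Pdk3 and Pdk4 (stacked bars, in percent of their sum) in each WT and KO library. Pdk3 made up 61.3% to 66.3% in all 6 libraries, and the Pdk1 band was wider in the KO libraries.

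Ratios taken inside a library do not depend on how libraries are scaled, and are given here as a description with no test. The 4 kinases together had 20.6, 22.6 and 22.2 times the reads per kb of the 2 phosphatases in WT, and 15.9, 15.9 and 14.5 times in KO. The KO ratios were all lower, by 0.50 on average on the log2 scale. The phosphatase sum rests on low counts, 60 to 115 reads a library for Pdp1 and 38 to 143 for Pdp2. Neither phosphatase passed the test. Within E1, Pdha1 had 0.460, 0.469 and 0.369 times the reads per kb of Pdhb in WT and 0.488, 0.485 and 0.551 times in KO, with the highest WT value just under the lowest KO value. Dlat over Pdhx was 1.10, 1.02 and 1.11 in WT and 1.41, 1.20 and 1.31 in KO. These groups were apart as well, by 0.28 on the log2 scale. The level of every ratio depends on the lengths used. With the longest transcript as length, Dlat stood below Pdhx in WT (10.7 and 12.9 CPM per kb) and near it in KO (13.6 and 13.4). For a ratio between single genes, the length does not change the log2 difference between KO and WT.

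The remaining ratios were chosen after the values had been seen. Pdk1 over Pdk3 went from 0.277, 0.293 and 0.313 in WT to 0.437, 0.361 and 0.395 in KO. Pdp2 over Pdp1 went from 0.467, 0.528 and 0.493 to 0.692, 0.985 and 0.629, with KO replicate 2 the highest. Pdk1 over Pdha1, the kinase against its substrate, was 0.479, 0.481 and 0.513 in WT and 0.559, 0.608 and 0.522 in KO, where KO replicate 3 was near WT replicate 3.

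**Figure D4:**
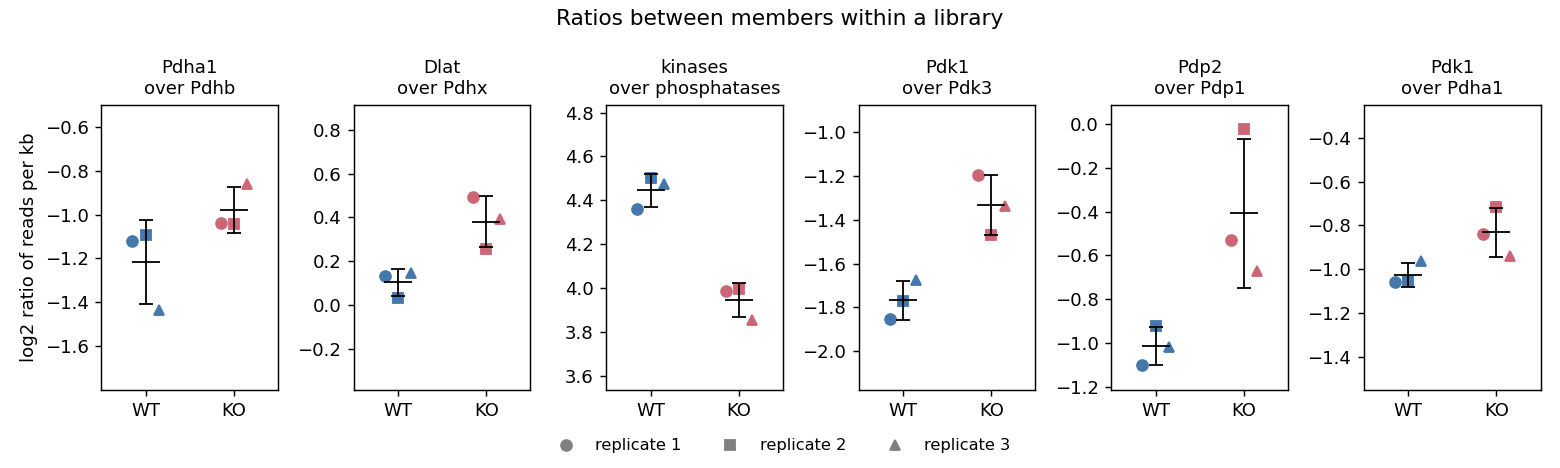
Log2 ratios of reads per kb between members within each library (y axes of equal span, not from 0), with symbols for replicates and bars for the mean ± SD of 3 libraries. Kinases over phosphatases stood at 4.36 to 4.50 in WT and 3.85 to 3.99 in KO.

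The genes that feed the complex and use its product were mixed. Of 13 tested genes that carry, make or use pyruvate, 0 passed with edgeR, 3 were higher and 3 lower at an unadjusted p under 0.05, and limma-voom passed 0. DESeq2, which gave 7 of the 13 an adjusted p, passed 2 higher and 2 lower. For this list and those below, 12.2% of all genes had an unadjusted p under 0.05 by edgeR. DESeq2 passed 2.89% of all 13721 genes tested, a share that also counts genes without an adjusted p. Lactate dehydrogenase Ldha, which competes for pyruvate, had 179, 186 and 190 CPM in WT and 299, 246 and 278 in KO (log2 0.57, SE 0.106, adjusted p = 0.0914 by edgeR). The red cell pyruvate kinase Pklr, which makes pyruvate, had a log2 change of 0.55 (adjusted p = 0.109 by edgeR). The lactate and pyruvate transporter Slc16a1 (log2 -0.42) and the carboxylase Pcx (log2 -0.54) were lower in every KO library, with adjusted p-values of 0.163 and 0.164 by edgeR. The median log2 change of this list was -0.28, but -0.09 without WT replicate 3, -0.12 without KO replicate 2, -0.15 by library totals and 0.03 in KO replicate 3 alone, so no direction is given for the list.

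The sister complexes of 2-oxoglutarate and branched-chain acids had 0 of 8 tested genes past the threshold with edgeR or limma-voom, 0 of the 3 to which DESeq2 gave an adjusted p, and 0 at an unadjusted p under 0.05 by edgeR. Their median log2 change was 0.13, but 0.05 without WT replicate 1, -0.01 without KO replicate 1 and -0.09 in KO replicate 3 alone, so no direction is given. Their genes with the smallest p were the branched-chain kinase Bckdk (log2 0.17), Ogdh (log2 -0.16), Dbt (log2 0.32) and Bckdha (log2 0.22). Of 14 tested genes for the lipoate and thiamine diphosphate cofactors, 0 passed with edgeR or limma-voom, 0 of the 6 with an adjusted p passed with DESeq2, and 2 had an unadjusted p under 0.05. Gcsh, the lipoyl-bearing protein of glycine cleavage, had the smallest p (7.10 ± 0.785 CPM in WT and 12.6 ± 2.91 in KO, log2 0.82). Fdx1 and Nfu1 had log2 changes of 0.48 and 0.18. Among 7 genes that make or use acetyl-CoA or carry citrate, 0 passed with edgeR and limma-voom, and 1 had an unadjusted p under 0.05. DESeq2 passed 1, the citrate lyase Acly (131 ± 31.1 to 75.5 ± 21.8 CPM, log2 -0.79, adjusted p = 0.287 by edgeR). Crat (log2 -0.26), Slc25a1 (log2 0.26) and citrate synthase Cs (log2 0.18) followed.

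Of 11 tested transcription factors and coactivators known to act on Pdk genes, 0 passed with edgeR or limma-voom. An unadjusted p under 0.05 by edgeR was found for 3, all lower, against 12.2% of all genes. DESeq2 passed 3 of the 8 with an adjusted p, all lower. Hif1a, the oxygen-regulated subunit of hypoxia-inducible factor 1, had 23.1, 27.9 and 41.9 CPM in WT and 10.5, 9.57 and 11.7 in KO. The groups were well apart, with WT replicate 3 the highest, and the log2 change was -1.54 (SE 0.219, adjusted p = 0.0528 by edgeR). Hif1a was thus lower, and Pdk1 higher, in every KO library than in any WT library. These are RNA levels only, and a link between the changes was not tested. Foxo3, a factor known to induce Pdk4, went from 826 ± 58.1 to 542 ± 151 CPM (log2 -0.61), and the glucocorticoid receptor Nr3c1 from 94.7 ± 26.3 to 58.8 ± 15.3 CPM (log2 -0.69), with adjusted p-values of 0.251 and 0.331 by edgeR. Epas1 had a log2 change of -0.18.

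**Figure D5:**
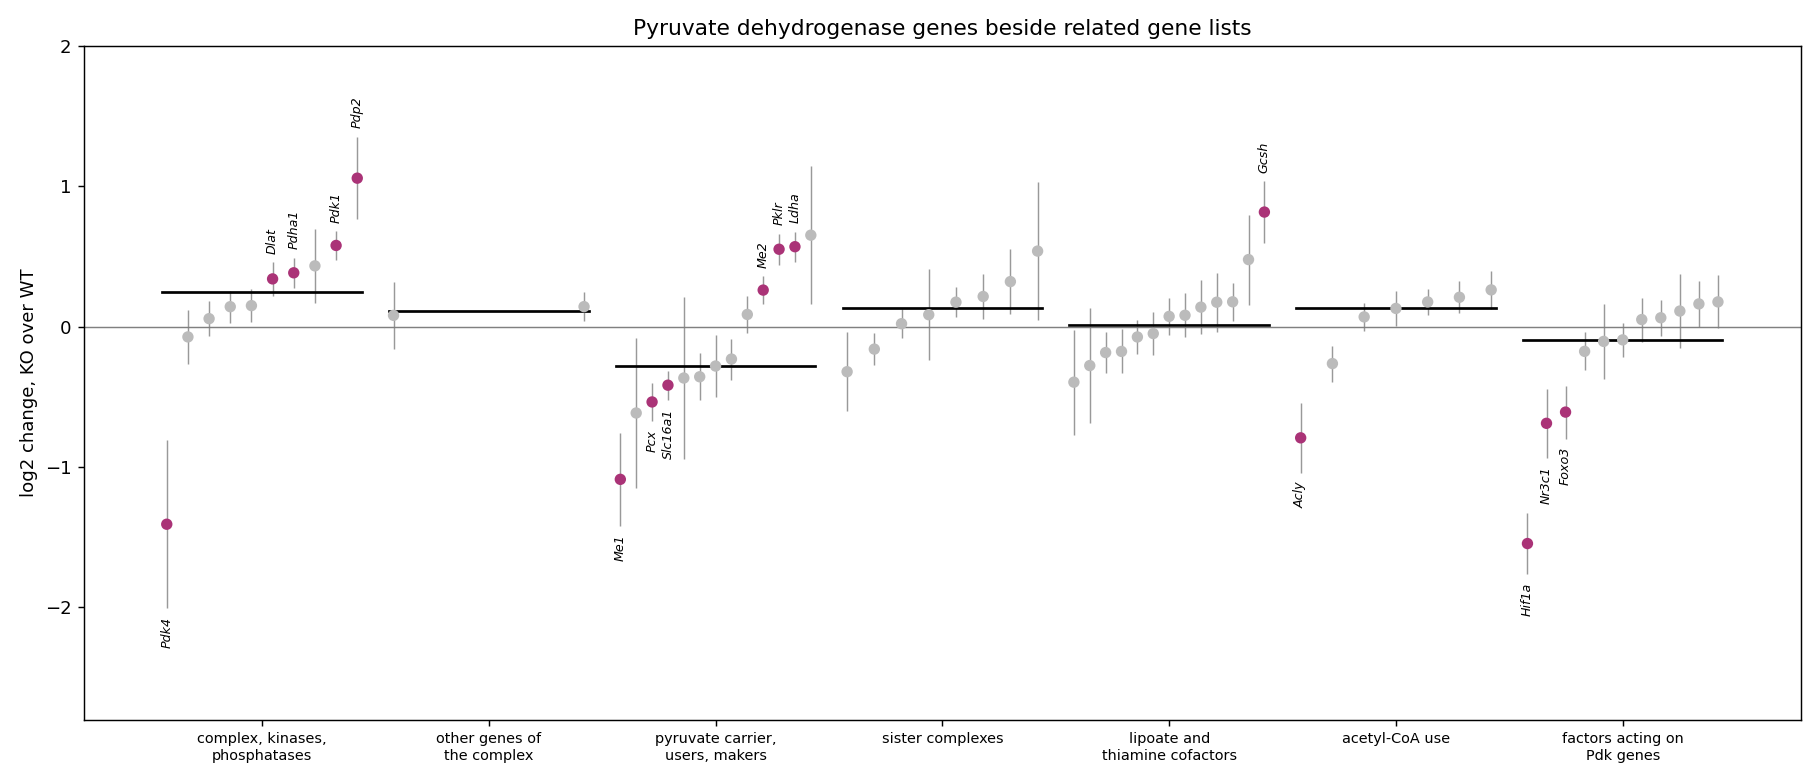
Log2 change of KO over WT (y axis) for the tested genes of 7 lists, 1 cofactor gene not drawn, with bars for the SE and a black line for the median of each whole list; purple points have an unadjusted edgeR p under 0.05 and are named. Among the named points Pdp2 is the highest at 1.06, and Hif1a at -1.54 and Pdk4 at -1.41 are the lowest.

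The genes whose log2 CPM over the 6 libraries was most like that of Pdk1 were Strap (Pearson r 0.994), the chaperonin subunit Cct2 (0.990) and Pdss1, an enzyme of the ubiquinone side chain (0.988). The 6 libraries hold both groups, so these values carry the difference between WT and KO. Strap went from 154 ± 2.24 to 177 ± 1.85 CPM, Cct2 from 209 ± 1.38 to 284 ± 8.95 and Pdss1 from 5.47 ± 0.182 to 7.74 ± 0.443.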

How the data were processed

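Per the labels' protocols, RNA from Ter119+ spleen cells was purified with a PureLink kit and made into TruSeq RNA V2 libraries, in which strand is not marked. The authors deposited whole-number read counts per gene symbol, 1 column per library. Per the submitters' processing notes, the build was mm10 and the tools included STAR 2.5, HTSeq and DESeq2. No annotation or strand setting is given in the sources used here. Reads shared with an overlapping gene or a near-identical copy may have been counted to either gene or to neither.

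Of 35275 lines, 27 whose names had become dates (0.340% to 0.383% of reads) were left out, and lines sharing a symbol were summed. Groups came from the sample titles. The closest pair of libraries differed by a chi-square of 22.1 per gene, so none was counted as a repeat. Tests used edgeR 4.0.16 in R 4.3.3 (filterByExpr, TMM, robust quasi-likelihood F test, no covariate, Benjamini-Hochberg over 13721 genes, threshold 0.05). CPM are counts over TMM-scaled library sizes. Log2 changes use a prior count of 0.125. SE is the log2 change over the root of F. Each CPM difference also had an exact permutation test. Lengths and positions came from GENCODE M21, and start-site windows from RefSeq (GRCm38.p6).

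The named genes are all members, Dld, Pdpr and Pdha2, up to 4 genes with the smallest p of each other list, Nfe2l2, and the 3 genes most correlated with the member of smallest p. Pdha2, at 0 reads, was not tested, and 1 cofactor gene that the rule names is not reported here. The members and lists were chosen with earlier results of these data known. Data were simulated for KO against WT, with 200 of 13448 to 13510 genes changed. On these, edgeR recovered 48.0% of changes of 1 log2 unit and 86.3% of changes of 2, with 7.37% of calls false. DESeq2 recovered 57.0% and 89.7%, with 15.6% of calls false, and limma-voom 43.3% and 82.7%, with 6.46% false. Changes under 1 log2 unit were not simulated. DESeq2 1.42.0 and limma-voom (limma 3.58.1), other scalings and filters, single libraries left out, a replicate block and KO replicate 3 alone were the alternatives. Intervals cover the spread between libraries.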

Additional observations from a re-analysis of the deposited data

How the results depend on the processing

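Of 156 comparisons of a member with an alternative that gave an adjusted p, 149 kept the direction and the side of the threshold. No member passed in the main fit, so the side kept was that of not passing. Most settings called few genes, so this count does not measure how firm the changes are. DESeq2 gave no adjusted p for Pdk2, Pdk4, Pdp1 and Pdp2. Pdk1 passed by library totals (log2 0.71), with DESeq2 (0.56) and with no filter (0.57). Pdhx turned to -0.039 in KO replicate 3 alone and ran from -0.0047 to 0.13 without single libraries, and Pdk2 turned to 0.056 by library totals and ran from -0.18 to 0.032 without single libraries. The cause was not tested. The 3 genes called became 10 with DESeq2 size factors, 8 with upper-quartile scaling, 33 by library totals, 397 with DESeq2, 0 with limma-voom (1681 at an unadjusted p under 0.05), 228 with no filter, 9 with a filter of 1 CPM in 3 libraries, 6 for KO replicate 3 alone, and 0 (without WT replicate 2, with 1338 at an unadjusted p under 0.05) to 14 without single libraries. By library totals 24 of the 33 calls were higher. With no filter, the 228 calls were out of 21680 genes tested, against 13721 by library totals and with DESeq2. Called members numbered 1 by library totals, with DESeq2 and with no filter. In the pyruvate list 2, 4 and 3 genes were called under those settings, in that order. DESeq2 called 1 acetyl-CoA gene and 3 factors of Pdk genes, and Hif1a alone (1 gene) was called with DESeq2 size factors, upper-quartile scaling, library totals, no filter, the filter of 1 CPM and the replicate block; without single libraries the number was 0 to 1, the call coming without WT replicate 1. The replicate block gave 9 calls. Same-numbered libraries correlated by 0.031 to 0.0985 after removal of group means, and 5 of 6 libraries correlated best with their own number, a hint from the data and not the design. With the longest transcript as length, the WT share of Pdk3 went from 64.9% to 61.3% and that of Pdk1 from 19.1% to 22.4%. Leaving out 1 library moved these KO minus WT differences by over 1.5 times: the Pdk4 share from -2.67 to -0.705 percentage points (WT replicate 1), the Pdk2 share from -1.90 to -0.930 (WT replicate 2), the Pdk3 share from -1.49 to between -2.47 and -0.424 (WT replicates 1 and 3, KO replicates 1 and 2), and Pdha1 over Pdhb from 0.24 to 0.13 log2 (WT replicate 3). Pdp2 over Pdp1 went from 0.61 to 0.41 without KO replicate 2. Counting error is proportionally largest for Pdk4, Pdp1 and Pdp2, which had 18 to 188 reads a library.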
